A study of Rattus norvegicus with 9 samples.

Results

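The receptors for the monoamines and for acetylcholine were followed through rat dorsal root ganglion (DRG) after nerve injury. Members were chosen by a rule on the gene symbol, with earlier results of these data known. It took serotonin receptors (Htr), adrenergic receptors (Adra and Adrb), dopamine receptors (Drd), histamine receptors (Hrh), muscarinic receptors (Chrm) and nicotinic subunits (Chrna to Chrng). The rule found 52 of the 20194 genes in the table, and Chrnd, which it would also take, was not analysed here. Of the 52, 29 reached an FPKM (fragments mapped to a gene, scaled for transcript length and library size) of 1 in at least 1 library and were tested. A further 13 stayed under this level but averaged at least 5 estimated counts and entered a wider fit, and 10 were too low to measure.

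Most of these receptors cross the membrane of a sensory neuron or a glial cell and act through G proteins, which lower or raise cyclic AMP or release calcium. The 5-HT3 receptor and the nicotinic receptors are instead ion channels built from subunits around a pore, and they depolarise the cell within milliseconds of binding serotonin or acetylcholine. In sensory neurons, serotonin and histamine released from blood and mast cells can excite nociceptors, whereas receptors that couple to inhibitory G proteins restrain transmitter release at their terminals.

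All rats were adult male Sprague Dawley animals. The sham group had surgery without the nerve lesion, the SNI group had spared nerve injury, in which some branches of the sciatic nerve are cut, and the SNI_G15 group had SNI and G15, an antagonist of the G protein-coupled oestrogen receptor GPER. G15 was given intrathecally for 24 h through a catheter placed on day 5 after SNI, in DMSO. The labels mark the sham and SNI samples as controls for G15 but do not say whether they received vehicle or a catheter, so G15, vehicle and catheter cannot be told apart. Each group had 3 libraries, made from ipsilateral lumbar DRG. The methods give 3 rats a group for this assay and a supplement gives another number, so p-values measure the spread between these libraries, whatever each one pooled.

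The libraries held 18484557 to 18756736 estimated counts. All 10 sensory neuron markers and all 9 nociceptor markers reached an FPKM of 1, and all 6 markers of injured neurons, such as Atf3 and Gal, were higher in SNI than in sham (median log2 fold change 4.94). Within a group, 2 libraries differed on average by 2.62 to 4.72 in chi-square per gene, except that replicate 3 of SNI_G15 differed from the other SNI_G15 libraries by 8.62 and 8.93. That library therefore stood apart, and receptors whose call changed without it are named where they are described. The labels name no batch. In bulk tissue, fewer cells of a type and less RNA per cell cannot be told apart.

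The receptors covered a wide range of levels. In sham DRG the serotonin-gated channel subunits Htr3a and Htr3b were the highest members, with FPKM of 80.8 ± 1.4 and 71.6 ± 2.1 (mean ± SD, n = 3). The nicotinic subunits Chrna3 at 44.3 ± 0.42 and Chrnb2 at 40.6 ± 2.8 came next and differed from each other by 1.3 SD of Chrnb2. Chrna6 at 17.5, Chrne at 16.1, Chrnb3 at 13.5, Adra2c at 12.5, Htr1d at 12.3 and Chrna7 at 11.2 formed a middle group. Among the families whose receptors all couple to G proteins, Adra2c led the adrenergic receptors, Htr1d the serotonin receptors, Drd2 at 7.90 the dopamine receptors, Hrh3 at 5.12 the histamine receptors and Chrm2 at 3.22 the muscarinic receptors. The 22 members with an FPKM of at least 1 in all 9 libraries include all of those named in this paragraph.

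**Figure D1:**
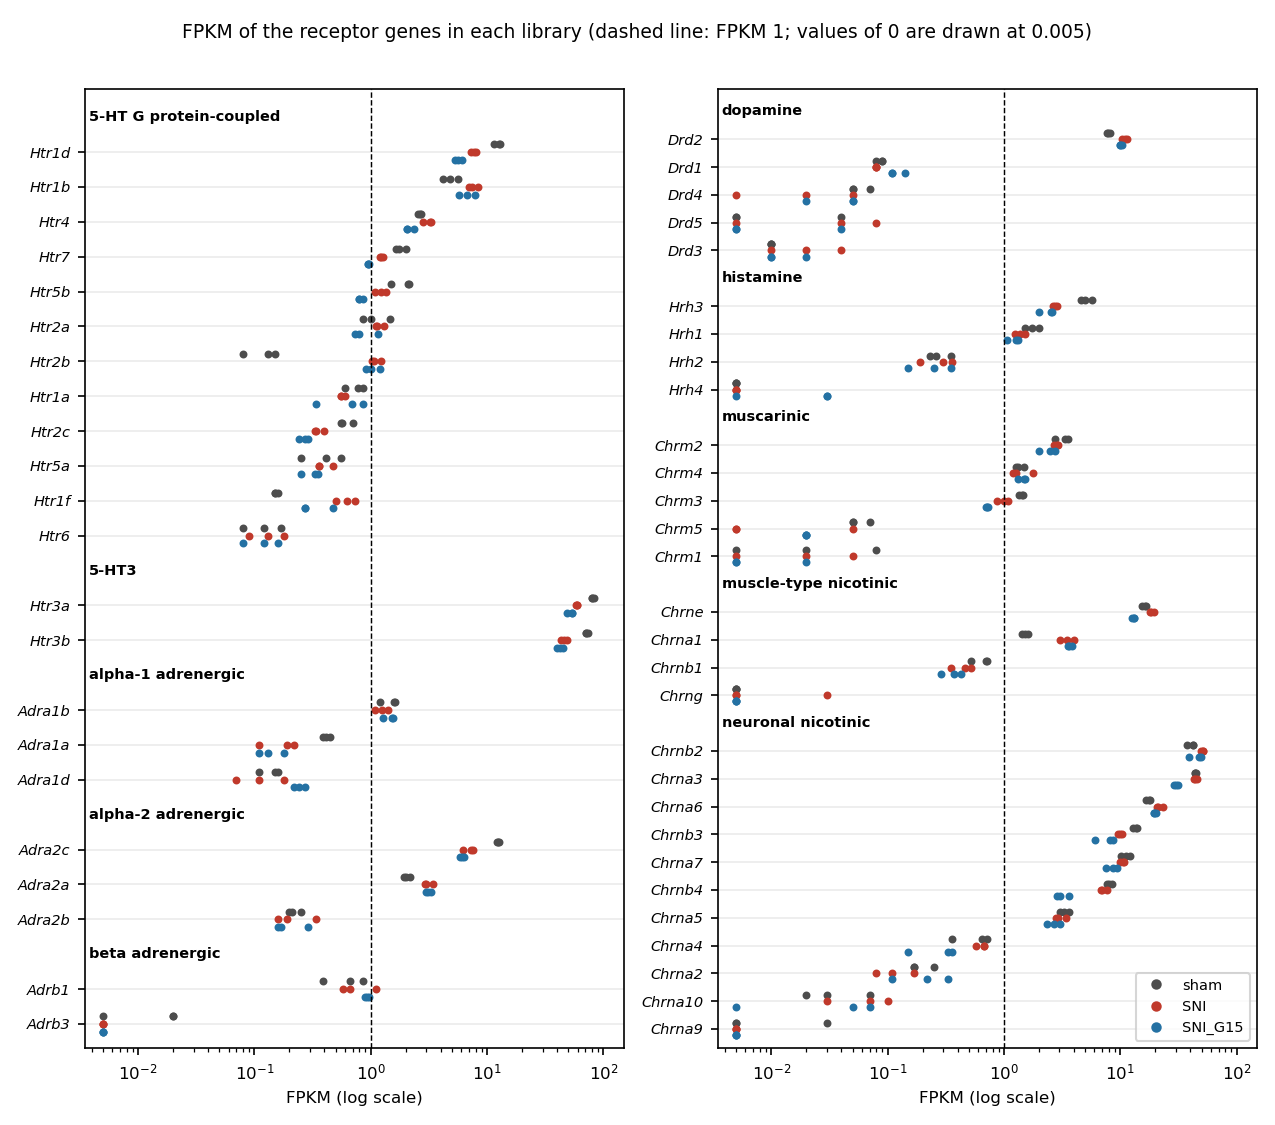
FPKM on a log scale for 51 of the 52 receptor genes, grouped by family, with 1 point per library (grey sham, red SNI, blue SNI_G15) and a dashed line at FPKM 1. The channel subunits Htr3a, Htr3b, Chrna3 and Chrnb2 lie furthest to the right, and the 10 members that were too low to measure lie at the far left.

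Other members reached the filter in some libraries only. Htr2b reached an FPKM of 1 in 5 libraries, of the SNI and SNI_G15 groups, so its place among the tested genes came from the groups where it was high. Htr7 and Htr5b reached it in the 6 sham and SNI libraries, Chrm3 in 5 libraries of those groups, Htr2a in 6 spread over all 3 groups and Adrb1 in 1. Estimated counts were not whole (to within 0.005) in at least 1 library for 10 tested members, with Htr5b, Htr2b, Hrh3, Chrna1, Chrna7 and Chrna5 not whole in all 9, so reads of these genes were shared out between transcripts or genes by the counting.

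The first comparison, SNI against sham, asked which receptors differed in the injured DRG. Of the 29 tested receptors, 18 were called by edgeR's quasi-likelihood test at an adjusted p under 0.05, 8 higher and 10 lower. Over all 14305 genes the share was 45.7%, with 23.3% higher and 22.4% lower. In the 22 members that passed in every library, 7 were higher and 7 lower. The median log2 fold change of the 29 was -0.15, beside 0.00 for all genes. In counts divided by the library total, the measure of all such tallies, the groups did not overlap for 20 of the 29, beside 54.9% of all genes. The rule of the methods takes genes that moved by 0.5 or more on the log2 scale with a raw p under 0.05, and by it 11 of the 29 were called, beside 14.8% of all genes.

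The second comparison, SNI_G15 against SNI, asked what differed with G15. Of the 29, 7 were called, all lower, and none was higher. In the 22 members that passed the filter in every library, 7 were lower. The share of all genes called was 15.2%, with 7.98% higher and 7.25% lower. The log2 fold change was negative for 23 of the 29, its median log2 fold change was -0.18 beside 0.01 for all genes, and 15 of the 29 did not overlap, beside 39% of all genes. The count of 7 became 4 without SNI replicate 1 or without SNI replicate 2, and 8 without SNI_G15 replicate 3, where Chrnb3 was added. By the rule of the methods 3 were called (Chrnb4, Chrna3 and Htr5b), beside 4.91% of all genes.

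The third comparison, SNI_G15 against sham, shares its libraries with the other two. It called 22 of the 29, with 5 higher and 17 lower, and the background was 43.2%, with 21.4% higher and 21.9% lower. In the 22 members that passed the filter in every library, 4 were higher and 14 lower. Of these 29 members 25 did not overlap, beside 53.7% of all genes. By the rule of the methods 14 were called, beside 18.5%.

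**Figure D2:**
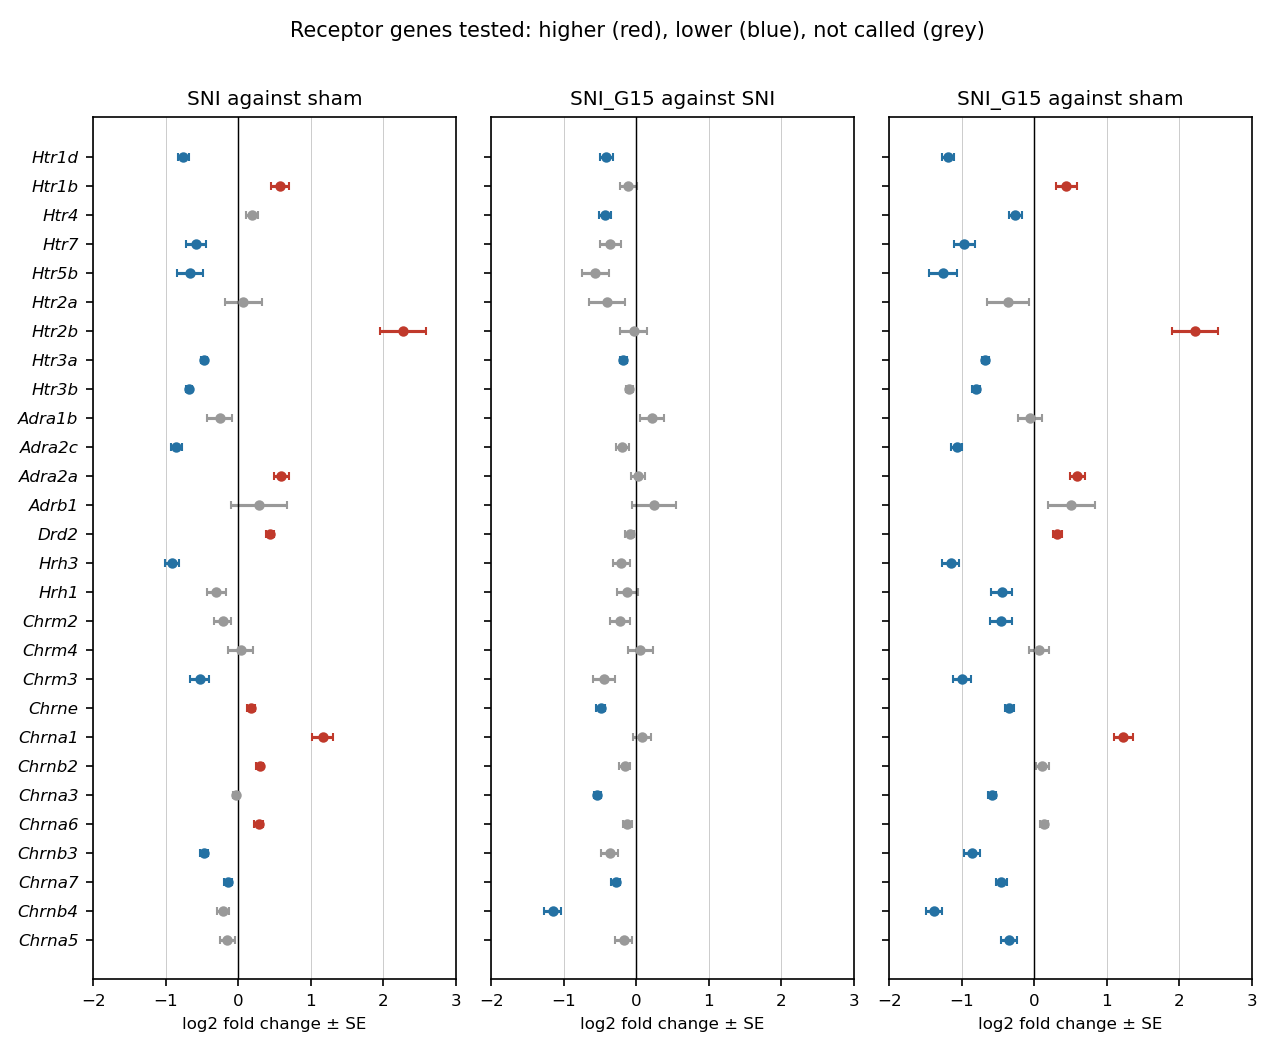
Log2 fold change ± SE of 28 of the 29 tested receptors in each comparison, from edgeR, with called members in red (higher) and blue (lower) and the others in grey. Red points stand in the panels against sham alone, and Chrnb4 is the lowest point of the panel of SNI_G15 against SNI.

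Both subunits of the 5-HT3 receptor, the serotonin-gated cation channel, were lower after injury. Htr3a, the subunit that can form the channel on its own, had FPKM of 80.4, 82.4 and 79.8 in sham, 58.5, 59.7 and 59.7 in SNI and 53.9, 53.5 and 48.9 in SNI_G15. The groups did not overlap. Htr3a was 1.39-fold lower in SNI than in sham (log2 fold change -0.47 ± 0.037 SE, edgeR adjusted p = 2.63e-06). It was lower again in SNI_G15 than in SNI, by -0.18 ± 0.046 on the log2 scale (edgeR adjusted p = 0.0353). That second call was lost with any 1 SNI library left out or without SNI_G15 replicate 2 (adjusted p = 0.05 to 0.127). Htr3b, the partner subunit, had FPKM of 70.4, 74.0 and 70.3 in sham, 46.0, 48.5 and 43.3 in SNI and 44.6, 42.5 and 39.9 in SNI_G15. It was 1.61-fold lower in SNI (log2 fold change -0.68 ± 0.044, edgeR adjusted p = 6.11e-07), and its SNI and SNI_G15 values overlapped in FPKM, though not in counts per library total, and did not pass the test (adjusted p = 0.18). Summed over both subunits, the FPKM was 152 ± 3.5 in sham, 105 ± 2.7 in SNI and 94.4 ± 5.1 in SNI_G15 (SD, n = 3). In RefSeq both genes are neighbours on chromosome 8.

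The serotonin receptors that act through G proteins moved in both directions after injury. Of the 12 in the table, 7 were tested, and 2 were called higher and 3 lower in SNI than in sham. Beside them, 23.3% of all genes tested were called higher and 22.4% lower. Htr1d and Htr1b, which couple to inhibitory G proteins and are targets of the triptans, went opposite ways. Htr1d had FPKM of 12.8, 11.4 and 12.7 in sham, 7.76, 8.04 and 7.30 in SNI and 6.08, 5.61 and 5.33 in SNI_G15. The groups fell in 3 separate steps. It was 1.69-fold lower in SNI (log2 fold change -0.76 ± 0.076, edgeR adjusted p = 1.73e-05) and lower again in SNI_G15 than in SNI (-0.41 ± 0.086, adjusted p = 0.0148), a call that was lost without SNI replicate 2 (adjusted p = 0.0688). Htr1b had FPKM of 4.77, 4.17 and 5.58 in sham, 7.42, 7.03 and 8.39 in SNI and 7.82, 6.70 and 5.76 in SNI_G15. It was 1.49-fold higher in SNI (log2 fold change 0.58 ± 0.12, edgeR adjusted p = 0.00321), and its SNI_G15 libraries overlapped those of SNI. Against sham, the SNI_G15 value was 0.44 ± 0.15 on the log2 scale (edgeR adjusted p = 0.0344), lost without sham replicate 1 or 2 or SNI_G15 replicate 1 or 2 (adjusted p = 0.0598 to 0.12).

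Htr2b, a receptor that couples to Gq and calcium release, gave the largest difference of the family. Its estimated counts were 15.4, 6.18 and 8.6 in sham, 57.6, 46.0 and 45.5 in SNI and 48.1, 53.9 and 43.0 in SNI_G15. The injured groups lay far above sham and overlapped each other. The fitted fold change was 4.85-fold higher in SNI (log2 fold change 2.28 ± 0.32, edgeR adjusted p = 0.000186) and 4.65-fold higher in SNI_G15 than in sham (2.22 ± 0.32, adjusted p = 0.000321). In FPKM the sham mean was 0.12 ± 0.036 and the SNI mean 1.11 ± 0.11. FPKM differed by more than the counts, and the counts moved between transcripts: the curated transcript took 19.5% of the gene's counts in sham and 75% in SNI, and a predicted one 80.5% and 25.0%. The gene overlaps Psmd1, which held 4911 to 5526 counts in every library, and the strand used in counting is not given in the sources used here, so some counts may belong to that neighbour.

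Htr7, Htr5b and Htr4 were lower members of the family in level. Htr7, a Gs-coupled receptor, had FPKM of 1.65, 1.76 and 2.03 in sham, 1.19, 1.27 and 1.23 in SNI and 0.94, 0.95 and 0.97 in SNI_G15. It was lower in SNI than in sham (log2 fold change -0.59 ± 0.14, edgeR adjusted p = 0.0049), and SNI_G15 lay below SNI without passing the test (adjusted p = 0.122). Htr5b had FPKM of 2.09, 1.48 and 2.12 in sham, 1.08, 1.34 and 1.23 in SNI and 0.85, 0.79 and 0.79 in SNI_G15. It was lower in SNI (log2 fold change -0.67 ± 0.18, edgeR adjusted p = 0.0127), a call lost without sham replicate 1 (adjusted p = 0.0508) or sham replicate 3 (adjusted p = 0.0537). Its difference between SNI_G15 and SNI, -0.57 on the log2 scale, did not pass (edgeR adjusted p = 0.0683). In SNI_G15 against sham, Htr7 was lower by -0.96 ± 0.15 and Htr5b by -1.26 ± 0.20 on the log2 scale (edgeR adjusted p = 0.000459 and 0.00056).

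Htr4, another Gs-coupled receptor, had FPKM of 2.57, 2.67 and 2.72 in sham, 3.28, 2.84 and 3.25 in SNI and 2.07, 2.35 and 2.04 in SNI_G15. SNI lay above sham without passing the test (log2 fold change 0.19 ± 0.083, edgeR adjusted p = 0.0866), and SNI_G15 was lower than SNI (-0.43 ± 0.085, adjusted p = 0.0121). This call was lost with DESeq2 (adjusted p = 0.0556) and without SNI replicate 1 (adjusted p = 0.0599). Against sham, SNI_G15 was lower by -0.26 (adjusted p = 0.044), which was lost when any 1 library was left out (adjusted p = 0.0681 to 0.137) and with DESeq2 (adjusted p = 0.222). Htr2a, the main Gq-coupled receptor of platelets and cortex, had FPKM of 0.73 to 1.46 over the 9 libraries and was called in no comparison.

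**Figure D3:**
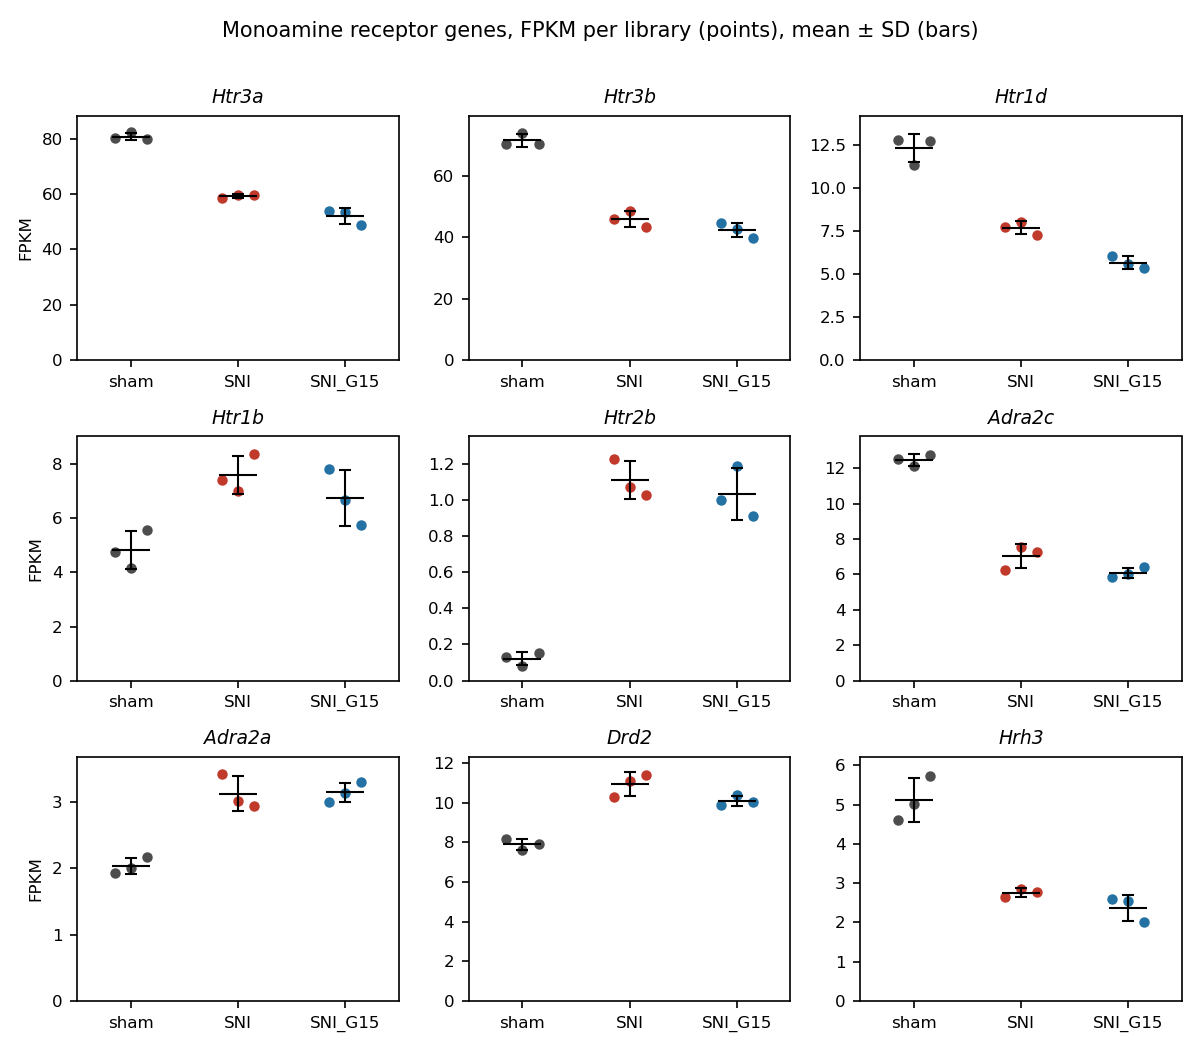
FPKM of 9 monoamine receptor genes in each library (points) with the mean ± SD of each group (black bars, n = 3). Htr3a, Htr3b, Htr1d, Adra2c and Hrh3 are lower in SNI than in sham, and Htr1b, Htr2b, Adra2a and Drd2 are higher.

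The alpha-2 adrenergic receptors, which couple to inhibitory G proteins and are the targets of clonidine, also split. Adra2c had FPKM of 12.6, 12.1 and 12.8 in sham, 6.27, 7.55 and 7.27 in SNI and 5.85, 6.05 and 6.40 in SNI_G15. Every sham library stood above every injured one. It was 1.81-fold lower in SNI (log2 fold change -0.86 ± 0.075, edgeR adjusted p = 6.37e-06) and 2.10-fold lower in SNI_G15 than in sham (-1.07 ± 0.072, adjusted p = 2.29e-06), with SNI and SNI_G15 overlapping. Adra2a had FPKM of 1.92, 2.00 and 2.16 in sham, 3.42, 3.01 and 2.93 in SNI and 2.99, 3.13 and 3.29 in SNI_G15. It was 1.51-fold higher in SNI and in SNI_G15 than in sham (log2 fold change 0.59 ± 0.10 in both, edgeR adjusted p = 0.000943 and 0.00124). Between SNI_G15 and SNI it differed by 0.02 ± 0.093 (adjusted p = 0.898). Adra2c thus stayed the higher of the pair per length in every library, but the summed FPKM of the alpha-2 family was 14.7 ± 0.39 in sham, 10.4 ± 0.36 in SNI and 9.44 ± 0.50 in SNI_G15.

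The other adrenergic receptors were near or below the filter. Adra1b, which couples to Gq, had FPKM of 1.09 to 1.63 over the 9 libraries, and it was called in no comparison. Adrb1 (0.39 to 1.12), which raises cyclic AMP, was not called either. Adra1a, the Gq-coupled receptor of smooth muscle and neurons, entered the wider fit with 32, 33 and 31 counts in sham, 9, 17 and 17 in SNI and 14, 11 and 9 in SNI_G15. It was 2.28-fold lower in SNI (log2 fold change -1.19 ± 0.28, edgeR adjusted p = 0.00534) and 2.89-fold lower in SNI_G15 than in sham (-1.53 ± 0.25, adjusted p = 0.000824). Over the alternatives these log2 fold changes shrank to as little as -0.27 and -0.31, with both calls kept.

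Drd2, the inhibitory dopamine receptor blocked by antipsychotic drugs, was the one dopamine receptor to reach an FPKM of 1. It had 8.18, 7.63 and 7.89 in sham, 10.3, 11.1 and 11.4 in SNI and 9.89, 10.4 and 10.02 in SNI_G15. Injured libraries lay above sham throughout. It was 1.35-fold higher in SNI (log2 fold change 0.43 ± 0.058, edgeR adjusted p = 0.00014) and 1.25-fold higher in SNI_G15 (0.32 ± 0.062, adjusted p = 0.00215), and its difference between SNI_G15 and SNI did not pass the test (adjusted p = 0.309). Drd1, with 5 to 9 counts, was in the wider fit and not called.

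Hrh3, the inhibitory histamine receptor of nerve terminals, had FPKM of 4.61, 5.01 and 5.73 in sham, 2.65, 2.86 and 2.77 in SNI and 2.60, 2.54 and 2.00 in SNI_G15. The sham libraries lay above all the others. It was 1.89-fold lower in SNI (log2 fold change -0.92 ± 0.093, edgeR adjusted p = 1.87e-05) and 2.22-fold lower in SNI_G15 than in sham (-1.15 ± 0.12, adjusted p = 3.72e-05). Hrh1, the Gq-coupled receptor of allergic itch, had FPKM of 1.75, 1.52 and 2.00 in sham, 1.52, 1.24 and 1.37 in SNI and 1.32, 1.07 and 1.28 in SNI_G15. It passed in SNI_G15 against sham alone (log2 fold change -0.45 ± 0.14, edgeR adjusted p = 0.0284), a call lost with DESeq2 (adjusted p = 0.1) and without sham replicate 1 or 3 or SNI_G15 replicate 2 (adjusted p = 0.0605 to 0.106).

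Of the muscarinic receptors, Chrm2, Chrm4 and Chrm3 were tested. Chrm3, which couples to Gq and drives gland and smooth muscle responses, had FPKM of 1.42, 1.34 and 1.46 in sham, 1.09, 0.87 and 1.01 in SNI and 0.73, 0.71 and 0.70 in SNI_G15. The values fell in 3 separate groups. It was lower in SNI than in sham (log2 fold change -0.53 ± 0.13, edgeR adjusted p = 0.00627) and 2.00-fold lower in SNI_G15 than in sham (-0.998 ± 0.13, adjusted p = 0.000174). The step from SNI to SNI_G15 was -0.44 ± 0.15 and did not pass (adjusted p = 0.0771). Chrm2, the inhibitory receptor of heart and nerve terminals, had FPKM of 3.54, 2.75 and 3.38 in sham, 2.87, 2.70 and 2.93 in SNI and 2.74, 2.49 and 1.99 in SNI_G15. It was called in SNI_G15 against sham (log2 fold change -0.46 ± 0.15, edgeR adjusted p = 0.031), and the call was lost without SNI_G15 replicate 3, the library that stood apart (-0.34, adjusted p = 0.0886), and also with DESeq2, with limma on log2(FPKM + 0.1), without SNI_G15 replicate 2 or without sham replicate 1 or 3 (adjusted p = 0.0521 to 0.111). Chrm4 stayed between 1.20 and 1.77 and was called nowhere.

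Of the 7 tested receptors called between SNI_G15 and SNI, Chrnb4 and Chrna3 had the most negative log2 fold changes. Chrna5, Chrna3 and Chrnb4 lie next to each other on chromosome 8 in RefSeq. Chrna3 and Chrnb4 together build the acetylcholine channel of autonomic ganglia, and Chrna5 is an accessory subunit that joins them. Their promoters, 250 bases up to the annotated start in RefSeq (GRCr8), are shown because the 3 genes are neighbours. The part of these sequences in the receptor differences was not tested. Capitals mark the GC box, GGGCGG on either strand.
Chrna5, chr8:64265629-64265878, plus strand: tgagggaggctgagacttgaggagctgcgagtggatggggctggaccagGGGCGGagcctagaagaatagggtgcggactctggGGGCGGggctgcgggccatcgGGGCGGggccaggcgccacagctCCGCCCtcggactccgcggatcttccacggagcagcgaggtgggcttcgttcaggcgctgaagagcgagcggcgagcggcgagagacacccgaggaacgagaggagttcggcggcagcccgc
Chrna3, chr8:64311252-64311501, minus strand: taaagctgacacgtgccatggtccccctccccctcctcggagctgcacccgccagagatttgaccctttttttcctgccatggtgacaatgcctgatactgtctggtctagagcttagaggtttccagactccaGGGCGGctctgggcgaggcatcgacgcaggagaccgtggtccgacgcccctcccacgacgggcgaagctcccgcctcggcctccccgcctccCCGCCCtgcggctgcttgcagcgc
Chrnb4, chr8:64333110-64333359, minus strand: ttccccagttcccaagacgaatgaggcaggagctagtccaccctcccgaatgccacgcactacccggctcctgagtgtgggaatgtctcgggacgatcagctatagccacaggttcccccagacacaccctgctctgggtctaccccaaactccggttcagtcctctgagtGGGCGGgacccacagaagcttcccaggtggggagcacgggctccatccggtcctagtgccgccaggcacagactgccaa

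The Chrna5 window held 4 GC boxes, the Chrna3 window 2 and the Chrnb4 window 1. Of all 33469 promoter windows of this length, 30.5% held at least 1, and 20 of the 40 receptor windows did. The receptor counts took 1 window a gene, whereas the shares over all windows were not limited to 1 a gene. The AP-1 letters TGANTCA were in 6.34% of all windows and in 0 of the 40, the CRE letters TGACGTCA in 1.59% and in 0 of the 40, and the SOX letters ACAAAG in 16.3% and in 2 of the 40, each searched on both strands. RefSeq windows were matched for 40 of the 52 receptor genes.

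Chrnb4 had FPKM of 7.76, 8.49 and 8.03 in sham, 7.64, 6.82 and 6.97 in SNI and 3.03, 3.66 and 2.85 in SNI_G15. The SNI_G15 libraries all lay below 4 and the others above 6. Chrnb4 was 2.23-fold lower in SNI_G15 than in SNI (log2 fold change -1.16 ± 0.11, edgeR adjusted p = 0.000424) and 2.62-fold lower than in sham (-1.39 ± 0.11, adjusted p = 7.91e-06). Between SNI and sham it was -0.21 ± 0.079 and did not pass (adjusted p = 0.0511). Chrna3 had FPKM of 44.8, 43.9 and 44.2 in sham, 43.2, 45.7 and 44.3 in SNI and 31.7, 30.3 and 28.9 in SNI_G15. It was 1.45-fold lower in SNI_G15 than in SNI (log2 fold change -0.54 ± 0.050, edgeR adjusted p = 0.000304), and SNI and sham overlapped (-0.03 ± 0.041, adjusted p = 0.642). Chrna5 had FPKM of 3.29, 3.03 and 3.60 in sham, 2.78, 3.44 and 2.90 in SNI and 2.68, 3.01 and 2.36 in SNI_G15. It differed from SNI by -0.17 ± 0.12 (adjusted p = 0.346), and its call in SNI_G15 against sham (-0.34 ± 0.11, adjusted p = 0.0324) was lost with DESeq2, with limma and without sham replicate 1 or 3 or SNI_G15 replicate 1 or 3 (adjusted p = 0.0707 to 0.122). Without SNI_G15 replicate 3, Chrnb4 was lower than in SNI by -1.09 (edgeR adjusted p = 0.000373) and Chrna3 by -0.51 (adjusted p = 0.000133). The differences of change between Chrnb4, Chrna3 and Chrna5 were not tested.

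Cell type markers and gene length also moved between SNI_G15 and SNI. Fibroblast markers were higher for 6 of 6 and Schwann cell markers for 4 of 5, and 4 of the 5 tested smooth muscle markers were higher. Over all genes 7.98% were called higher and 7.25% lower. Of the 5 tested mast cell markers, Cpa3, Cma1 and Tpsb2 were higher, by 2.43, 3.09 and 2.98 on the log2 scale (edgeR adjusted p = 0.00342, 0.00134 and 0.00284), and the list summed to FPKM of 12.1 to 12.8 in SNI and 15.3 to 15.9 in SNI_G15. In SNI these genes had 1 to 8 counts a library and mean FPKM of 0.19, 0.19 and 0.13. They passed the filter only through SNI_G15, the group where they were high (mean FPKM 1.03, 1.62 and 1.09). Of the 4 tested T cell markers, 2 were lower, Cd3e by -1.69 and Cd3d by -2.39 (adjusted p = 0.01 and 0.0329). Both passed the filter only through SNI, with mean FPKM of 1.14 and 0.78 there and 0.40 and 0.14 in SNI_G15. Of 7 macrophage markers 2 were higher, and of 5 satellite glia markers 2 were higher and 1 lower. Of 10 sensory neuron markers 1 was higher and 1 lower, and of 9 nociceptor markers 1 was higher and 3 lower. The spinal cord list summed to FPKM of 111 to 116 in SNI and 82.5 to 106 in SNI_G15, and 0 of its 3 tested members were called (edgeR), with Slc32a1, Slc6a5 and Opalin under 1. Most of this sum was 1 gene, Slc17a7, with mean FPKM of 108 in SNI and 90.3 in SNI_G15. The oligodendrocyte genes Mog (2.61 and 2.72) and Mobp (1.83 and 3.43) were low in both groups. The sympathetic neuron list summed to 0.74 to 0.94 in SNI and 0.50 to 0.73 in SNI_G15, with Dbh at 0 counts in all 6 libraries. In 4 groups of genes by effective length, from shortest to longest, the median log2 fold change of all genes was 0.14, 0.04, -0.02 and -0.10. Chrna3 and Chrnb4 were in the shortest group and Chrna7 and Chrm3 in the longest. The part of cell composition or length in the receptor differences was not tested.

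Chrnb2, a subunit that joins most neuronal receptors that bind nicotine tightly, had FPKM of 42.4, 37.3 and 42.1 in sham, 51.1, 49.9 and 51.6 in SNI and 47.4, 49.1 and 38.8 in SNI_G15. It was 1.23-fold higher in SNI (log2 fold change 0.29 ± 0.052, edgeR adjusted p = 0.000993), and SNI_G15 overlapped sham through replicate 3, the library that stood apart. Its difference between SNI_G15 and sham was 0.11 (edgeR adjusted p = 0.338), and 0.21 without that replicate (adjusted p = 0.024). Chrna6 had FPKM of 17.8, 17.95 and 16.7 in sham, 21.2, 23.2 and 20.7 in SNI and 20.4, 19.4 and 19.4 in SNI_G15, and was 1.21-fold higher in SNI than in sham (0.28 ± 0.058, adjusted p = 0.00259). Its neighbour and partner subunit Chrnb3 went the other way, with FPKM of 13.7, 12.9 and 13.8 in sham, 9.91, 9.51 and 10.4 in SNI and 8.12, 8.70 and 6.06 in SNI_G15. Chrnb3 was 1.38-fold lower in SNI (log2 fold change -0.47 ± 0.056, edgeR adjusted p = 6.08e-05) and 1.82-fold lower in SNI_G15 than in sham (-0.86 ± 0.11, adjusted p = 0.000171). From SNI to SNI_G15 its difference was -0.37 ± 0.11 (edgeR adjusted p = 0.0579), and -0.23 ± 0.065 without SNI_G15 replicate 3 (adjusted p = 0.0385). Chrna6 and Chrnb3 are neighbours on chromosome 16 in RefSeq.

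Chrna7, which forms a channel from a single kind of subunit and lets calcium through, had FPKM of 12.04, 10.3 and 11.2 in sham, 10, 10.6 and 10.8 in SNI and 9.31, 8.69 and 7.55 in SNI_G15. SNI_G15 lay below all the other libraries. It was lower in SNI_G15 than in sham (log2 fold change -0.45 ± 0.076, edgeR adjusted p = 0.000893) and than in SNI (-0.28 ± 0.067, adjusted p = 0.0245). The latter call was lost with any 1 SNI library left out (adjusted p = 0.0526 to 0.0986) and with limma (adjusted p = 0.0529 and 0.0534). Its call in SNI against sham was marginal (-0.15 ± 0.054, adjusted p = 0.0495), with overlapping groups, and was lost in 11 of 14 alternatives (adjusted p up to 0.298), among them each SNI library left out. In the wider fit, Chrna4 had 14, 26 and 28 counts in sham, 23, 27 and 27 in SNI and 13, 14 and 6 in SNI_G15. It was lower in SNI_G15 than in SNI (log2 fold change -1.20 ± 0.32, edgeR adjusted p = 0.038), but the call was lost in 7 of 13 alternatives, among them leaving out SNI_G15 replicate 3 (-0.91, adjusted p = 0.0637), and its counts may include reads of Col20a1, which overlaps it.

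**Figure D4:**
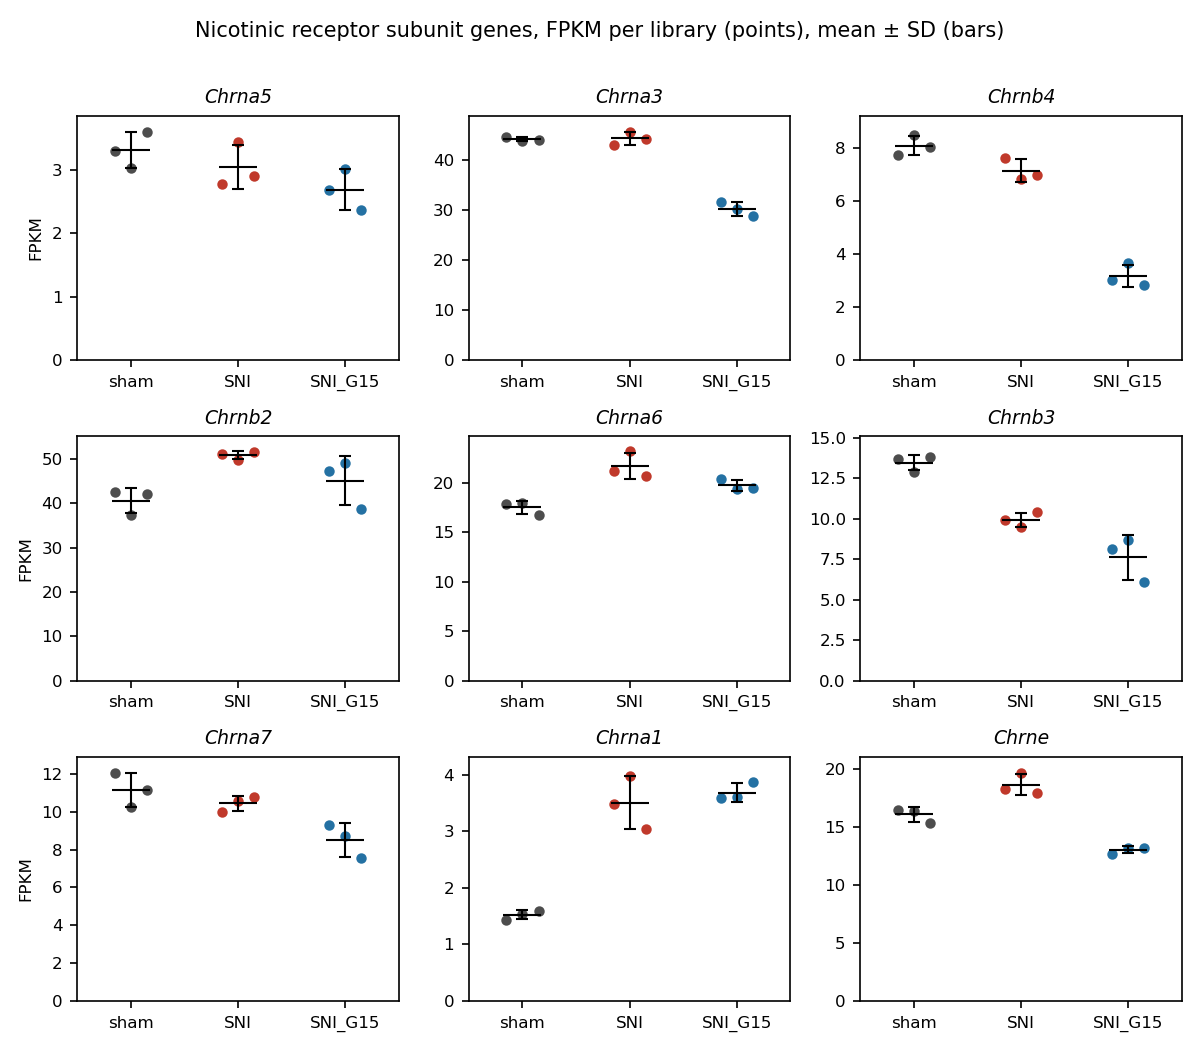
FPKM of 9 nicotinic subunit genes in each library (points) with the mean ± SD of each group (black bars, n = 3). In the top row, Chrna3 and Chrnb4 are lower in SNI_G15 than in the other groups. The SNI values of Chrna5 overlap those of both other groups, and its SNI_G15 values lie below those of sham.

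Subunits of the muscle-type receptor, the channel of the neuromuscular junction, were also present. Chrna1, which carries the binding site, had FPKM of 1.44, 1.53 and 1.60 in sham, 3.49, 3.98 and 3.04 in SNI and 3.58, 3.60 and 3.87 in SNI_G15. Both injured groups lay clear of sham. It was 2.25-fold higher in SNI (log2 fold change 1.17 ± 0.15, edgeR adjusted p = 7.92e-05) and 2.34-fold higher in SNI_G15 (1.23 ± 0.13, adjusted p = 4.41e-05). The skeletal muscle list summed to FPKM of 11.0 to 12.3 in the sham libraries, 10.6 to 11.1 in those of SNI and 11.8 to 13.6 with G15, with Myh4 and Actn3 under 1 and 0 of 4 tested members called by edgeR in any comparison. Chrne, the adult subunit, had FPKM of 16.5, 16.4 and 15.4 in sham, 18.3, 19.7 and 17.97 in SNI and 12.7, 13.2 and 13.3 in SNI_G15. It was 1.41-fold lower in SNI_G15 than in SNI (log2 fold change -0.49 ± 0.057, edgeR adjusted p = 0.000974) and 1.27-fold lower than in sham (-0.34 ± 0.063, adjusted p = 0.00148). Its rise in SNI over sham, 0.17 ± 0.057 (adjusted p = 0.0302), was lost with DESeq2 (0.123) and without sham replicate 1 or 3 or SNI replicate 1 or 2 (adjusted p = 0.0566 to 0.134). In RefSeq Chrne overlaps Gp1ba, with 2 to 8 counts a library, and an open reading frame not analysed here, so its reads are uncertain. Chrnb1 had 22, 29 and 30 counts in sham, 17, 15 and 22 in SNI and 12.1, 18 and 16 in SNI_G15, and overlaps Zbtb4, which held 3187 to 3544 counts.

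In the wider fit 3 of 13 members were called in SNI against sham, beside 42% of its 16514 genes, 1 in SNI_G15 against SNI, beside 13.1%, and 4 in SNI_G15 against sham, beside 40%. Htr1f, another inhibitory triptan target, had 4, 4 and 4 counts in sham, 13, 19 and 16 in SNI and 12, 7 and 7 in SNI_G15, and was 3.82-fold higher in SNI than in sham (log2 fold change 1.93 ± 0.36, edgeR adjusted p = 0.00143). Its sham counts lay under the filter's mean of 5, so Htr1f entered this fit through the injured groups, where it was high. Over the alternatives its log2 fold change was as low as 0.48. Htr2c, a Gq-coupled receptor, had 48, 60 and 47 counts in sham, 27, 30 and 33 in SNI and 22, 24 and 20 in SNI_G15. It was lower in SNI (log2 fold change -0.82 ± 0.19, edgeR adjusted p = 0.00611) and in SNI_G15 against sham (-1.27 ± 0.20, adjusted p = 0.0006). Over the alternatives these log2 fold changes of Htr2c shrank to as little as -0.25 and -0.35, with both calls kept. Against sham, SNI_G15 also had lower Chrnb1 (-0.85, edgeR adjusted p = 0.0268) and Chrna4 (-1.08, adjusted p = 0.0451), and both calls were lost with DESeq2 and without sham replicate 2 or 3 or SNI_G15 replicate 1 or 3 (adjusted p = 0.0514 to 0.148). Htr1a, Htr5a, Htr6, Adra1d, Adra2b, Hrh2 and Chrna2, like Drd1, were not called in this fit, at 3 to 26 counts a library.

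The 10 members too low to measure were Adrb3, Drd3, Drd4, Drd5, Hrh4, Chrm1, Chrm5, Chrng, Chrna9 and Chrna10. None had more than 5 counts in any library. Chrng, the fetal muscle subunit, had 1 count in 1 library, Chrna9 had 1 count in 1 library, and Hrh4, a receptor of immune cells, 1 count in each of 2 SNI_G15 libraries. At this depth a difference in these genes was not detectable.

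Genes that make, carry and break down the transmitters were read as a list of 23, of which 13 were tested. In SNI against sham 4 were higher and 4 lower, beside 45.7% of all genes called, and the list's median log2 fold change was 0.01. Tph2, the enzyme that limits serotonin synthesis in neurons, had 220, 178 and 198 counts in sham, 866, 837 and 800 in SNI and 698, 620 and 672 in SNI_G15. Its log2 fold change was 2.04 ± 0.073 in SNI against sham (edgeR adjusted p = 7.64e-09) and -0.32 ± 0.060 in SNI_G15 against SNI (adjusted p = 0.00916), the 1 list member called there, beside 15.2% of all genes. Hdc, which makes histamine, had 10, 14 and 14 counts in sham, 42, 65 and 51 in SNI and 32, 48 and 40 in SNI_G15, and its log2 fold change in SNI was 2.01 ± 0.27 (edgeR adjusted p = 0.00014). Its mean FPKM was 0.29 in sham, 1.21 in SNI and 0.92 in SNI_G15, so it passed the filter through the injured groups. Of the 5 tested mast cell markers, Hdc alone was called in SNI against sham, and Cpa3, Kit, Cma1 and Tpsb2 were not (log2 fold changes -0.75, -0.03, -1.20 and -1.45). Maoa, which oxidises serotonin and noradrenaline, was higher by 1.18 ± 0.056 and the monoamine transporter Slc29a4 by 0.53 ± 0.046 on the log2 scale (edgeR adjusted p = 6.5e-08 and 5.62e-06). Th, the first enzyme of catecholamine synthesis, was lower by -1.18 ± 0.26 and the choline transporter Slc5a7 by -0.73 ± 0.091 (adjusted p = 0.00339 and 8.13e-05). The 10 members under FPKM 1 included Chat, which makes acetylcholine, the serotonin transporter Slc6a4 and the noradrenaline enzyme Dbh. In SNI_G15 against sham 4 of the 13 were higher and 5 lower, beside 43.2% of all genes called.

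Of 14 genes for receptor assembly and accessory proteins, 10 were tested, and in SNI against sham 1 was higher and 6 were lower (median log2 fold change -0.27), beside 45.7% of all genes called. Lypd1, a membrane-anchored modulator of nicotinic receptors, was lower by -0.92 ± 0.075 (edgeR adjusted p = 3.85e-06), from 322, 305 and 302 counts in sham to 162, 160 and 180 in SNI. Rapsn, which anchors the muscle-type receptor, was lower by -0.56 ± 0.19 and Ly6h by -0.54 ± 0.12 (adjusted p = 0.0327 and 0.00466). In SNI_G15 against SNI 0 were higher and 3 lower, beside 15.2% of all genes called, with Dok7, an activator of the kinase that clusters muscle-type receptors, at -0.54 ± 0.13 (edgeR adjusted p = 0.0243). The count of 3 was 0 or 1 when any SNI library or SNI_G15 replicate 1 or 2 was left out. In SNI_G15 against sham 1 was higher and 5 lower, beside 43.2% of all genes called.

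All 23 listed G proteins, receptor kinases, arrestins and RGS proteins, which carry and end the signal of the G protein-coupled members, were tested. In SNI against sham 6 were higher and 11 lower (median -0.10), beside 45.7% of all genes called. Rgs2, which speeds the switching off of Gq, was higher by 1.02 ± 0.073, Arrb1, an arrestin that uncouples receptors, by 0.75 ± 0.035, and the receptor kinase Grk6 by 0.50 ± 0.047 on the log2 scale (edgeR adjusted p = 1.37e-06, 5.07e-08 and 9.29e-06). Rgs8 was lower by -0.72 ± 0.084 (adjusted p = 5.28e-05). In SNI_G15 against SNI 0 of the 23 were higher and 3 lower, beside 15.2% of all genes called and 7.25% lower, none of the 3 by 0.5 or more, and the 3 became 0 when any SNI library was left out. In SNI_G15 against sham 6 were higher and 11 lower, beside 43.2% of all genes called.

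Other cell types moved with injury beside the receptors. In SNI against sham 7 of 10 sensory neuron markers and 7 of 9 nociceptor markers were lower, with median log2 fold changes of -0.44 and -0.37, as were 5 of 5 Schwann cell markers, while 6 of 7 macrophage markers and 2 of 4 T cell markers were higher. Of the sensory neuron markers 2 were higher, Prph by 0.28 and Tubb3 by 0.35 on the log2 scale (edgeR adjusted p = 2.7e-05 and 5.58e-06). Over all genes 22.4% were called lower and 23.3% higher. The sympathetic neuron list summed to FPKM of 1.38 to 1.75 in sham and 0.74 to 0.94 in SNI, with Dbh, Slc6a2 and Phox2a under 1. Summed sensory neuron markers ran from 16013 to 16429 in sham and from 13484 to 13913 in SNI. Their part in the receptor differences was not tested.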

How the data were processed

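RNA of rat DRG from 9 libraries (3 sham, 3 SNI, 3 SNI_G15) had been sequenced as 150 bp paired reads. The authors deposited FPKM per gene, the sum over its transcripts, and estimated counts per gene and transcript, which are not normalised and need not be whole. Sham columns are headed as control, the one group left by the other names, and were matched by their number. The aligner is not given in the sources used here. The labels list a mouse genome build although gene IDs are rat, and their extraction text names another cell type, so the build of the values is unknown and no coordinates of the deposited values are given. RefSeq (GRCr8) supplied names, neighbours and promoters, and 52 of 52 members matched.

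Estimated counts were rounded and fitted per comparison with edgeR 4.0.16 in R 4.3.3 (TMM, quasi-likelihood test, Benjamini-Hochberg adjustment, called at an adjusted p below 0.05) over the 14305 genes that reached an FPKM of 1 in any library. A wider fit took genes with a mean of at least 5 counts (16514). Depth was 18484557 to 18756736 estimated counts, so low genes are limited by counting error. Alternatives were RLE normalisation, other filters, DESeq2 1.42.0, limma 3.58.1 on log2(FPKM + 1) and log2(FPKM + 0.1), a replicate block, a joint fit of all 9 libraries, each library left out, and the rule of the methods, a raw p under 0.05 with a move of 0.5 or more on the log2 scale. Counts were simulated for SNI against sham over 14305 genes, with the same relative spread for every gene. In them edgeR recovered 98.5% of 200 genes changed by 1 on the log2 scale, with 11 false calls. The changed genes were not taken from the lowest counts. Smaller changes, and the comparisons with SNI_G15, where the spread was wider, were not simulated. Full statistics were given for up to 12 called members a comparison and the leading member of each family; of the pathway lists, called genes changed by at least 0.5 were named, up to 6 a list, and mast and T cell markers were added after their values were seen. The values of 1 member, counted in the totals, are not reported here. Members and lists were chosen with earlier results of these data known.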

Additional observations from a re-analysis of the deposited data

How the results depend on the processing

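No called receptor changed direction in another fit, while of the receptors not called 11 of 21, 7 of 34 and 5 of 16 changed sign in at least 1 fit, in SNI against sham, SNI_G15 against SNI and SNI_G15 against sham. Of 21 calls of receptors in SNI against sham 18 were kept at an adjusted p under 0.05 in every other fit, of 8 in SNI_G15 against SNI 3 (Chrna3, Chrnb4 and Chrne), and of 26 in SNI_G15 against sham 19, members of the wider fit included. The rule of the methods, on the same fit, gave 11, 3 and 14 called of the 29 in place of 18, 7 and 22. In SNI_G15 against SNI its 3 were Chrnb4, Chrna3 and Htr5b. Htr5b was not called by the main test there (edgeR adjusted p = 0.0683), and Chrne, at -0.49, missed the fold limit of the rule. With 1 library left out, the 7 receptors called in SNI_G15 against SNI became 4 to 8. The 1 call of the wider fit there became 0 with DESeq2, 0 with the replicate block and 0 to 1 with a library left out. In SNI_G15 against sham the 4 calls of the wider fit became 2 with DESeq2 and 2 to 4 with a library left out. In SNI_G15 against SNI, the 3 assembly genes called became 1 with the replicate block and 0 to 4 with a library left out, and the 3 G protein genes became 0 with the block, 5 with all 9 libraries in one fit and 0 to 4 with a library left out. Where an arm kept 2 libraries, fewer samples entered the fit; other causes were not tested. Limma on log2(FPKM + 1) gave smaller fold changes for genes near an FPKM of 1, as Htr2b at 0.91, by construction.

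Libraries of the same number did not deviate together (r = -0.13 to 0.07 over the 9 pairs across groups), so no pairing by number was seen. With 3 libraries a group, these correlations cannot show that there was none. With the replicate number as a block, 17, 5 and 19 of the 29 receptors were called in place of 18, 7 and 22. Of all 14305 genes, 6440, 1292 and 5735 were called with the block, in place of 6537, 2179 and 6186. Counts under about 5 a library limit what can be said of the lowest receptors.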
